A study of Mus musculus with 28 samples.

Results

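The interferon-stimulated genes described here are 32 mouse genes chosen by name as members of the antiviral transcript programme, with the class I major histocompatibility genes left out. The choice was made with earlier results of these data known. All 32 were found by symbol among 54109 gene identifiers in 12 RNA-seq libraries of fibroblasts being reprogrammed to pluripotency, and among 54838 identifiers in 6 libraries of induced pluripotent stem cells (iPSCs). The genes fall into 7 roles: 3 cytosolic RNA sensors, 4 transcription factors, 2 genes of the ISG15 system, 6 effectors directed at RNA, 8 membrane and GTPase effectors, 3 genes of the PARP and DTX3L group, and 6 other induced genes.

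Cells in every reprogramming group were mouse embryonic fibroblasts (MEFs) from midgestation embryos (E13.5–E15.5) that carried Rosa26-rtTA and Oct4-GFP in heterozygous form, together with either a heterozygous inducible OKSM allele or a homozygous inducible OKS allele; which library came from which allele is not given in the sources used here. OKSM encodes the reprogramming factors Oct4, Klf4, Sox2 and c-Myc, and OKS lacks c-Myc. The cells were seeded at 250 per square centimetre on irradiated feeder cells, and all 4 groups received 1 µg/ml doxycycline, which switches the factors on. The DOX group had doxycycline alone, DOX with UNC added 1 µM UNC0638 (which inhibits G9a and GLP, the enzymes that place the repressive H3K9me2 mark), and DOX with 3C added a mixture of 250 nM TGF-b RI Kinase Inhibitor II, 3 µM CHIR99021 (a GSK3 inhibitor) and 50 µg/ml L-ascorbic acid. The last group had both UNC and 3C. Each group holds 3 libraries. The 2 iPSC groups, with 3 libraries each, were derived from MEFs (E13.5–E15.5) with DMSO or with 1 µM UNC0638 for the first 48 hours. The harvest time of the reprogramming libraries is not given in the sources used here, the RNA of irradiated feeders may be in the libraries, and nothing in the labels says that replicates came from separate cultures, so p-values measure the spread between these libraries, which may be technical.

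Interferons are secreted proteins that bind receptors on the same or neighbouring cells. Type I interferon signals through the IFNAR receptor and the kinases JAK1 and TYK2 to a complex that holds STAT2 and IRF9 and binds the interferon-stimulated response element of target genes; interferon gamma has its own receptor and acts through a different element. Cytosolic sensors such as RIG-I and MDA5 recognise viral or unusual RNA and lead to interferon transcription. The programme is known to be muted in pluripotent cells and active in fibroblasts.

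The deposited values gave 10616764 to 20211641 reads per reprogramming library and 21592023 to 25408585 per iPSC library. Fibroblast markers were abundant in all 12 reprogramming libraries, all 10 pluripotency markers were above 0 in each iPSC group, and of the pluripotency markers only Pou5f1 and Sox2, which are also reprogramming factors, were high enough to test during reprogramming. Summed macrophage markers ran from 140 to 533 normalised counts in DOX, 132 to 509 in DOX with UNC, 185 to 545 in DOX with 3C and 217 to 581 with both, and 0 of the 13 was at 0 in every library of a group. Lymphoid and dendritic markers summed to at most 8.03 in any reprogramming library.

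Of the 32 members, 21 reached 10 normalised counts in at least 3 reprogramming libraries and were tested, and 11 did not. The 11 were Isg15, Usp18, Ifit1, Ifit3, Oas1a, Oasl2, Mx1, Mx2, Rsad2, Ifi44 and Cxcl10, and none of them exceeded 13.3 normalised counts or 11 reads in a library. They include the ubiquitin-like modifier ISG15 and its protease USP18, the cap-binding IFIT1, the 2-5A synthetase OAS1A, the dynamin-like MX proteins and viperin (Rsad2), which are among the genes most often used to read interferon signalling. Isg15 had at most 6 reads, in DOX with 3C replicate 2, and 0 reads in DOX replicate 1. Mx1 had at most 2 reads in any of the 12 libraries and no read in the 3 DOX libraries. These members gave too few reads to test, and the filter leaves them out of the counts below.

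**Figure D1:**
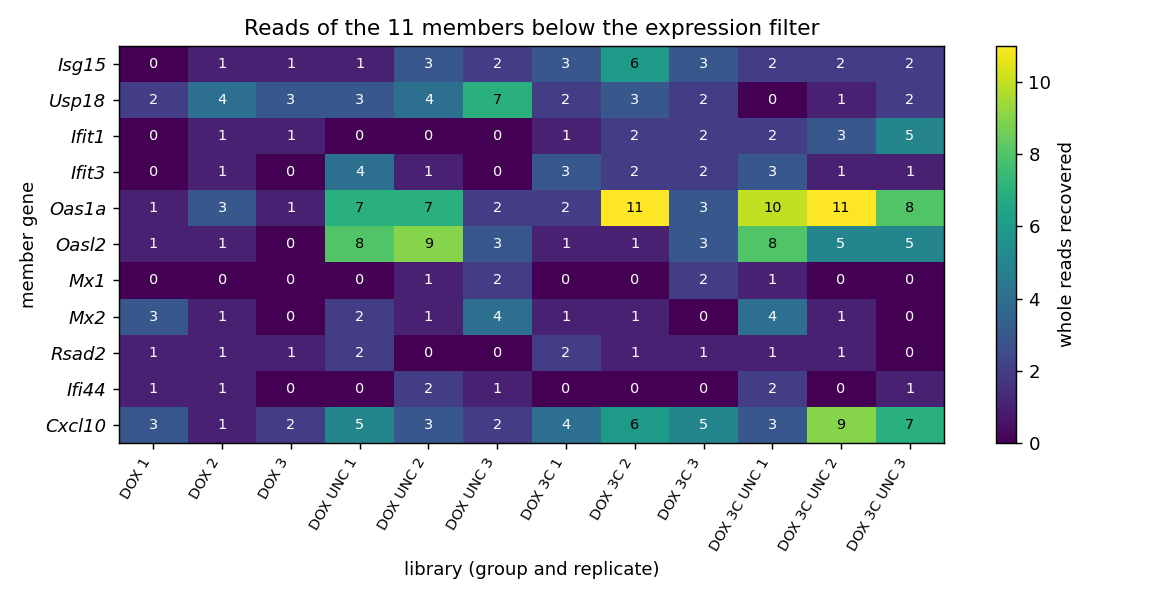
Whole reads recovered for the 11 members below the expression filter (rows) in each of the 12 reprogramming libraries (columns, by group and replicate), with the number of reads printed and coloured from 0 to 11. Oas1a, Oasl2 and Cxcl10 hold the highest counts, up to 11 reads, and Oasl2 is at 3 reads or more in all 6 libraries with UNC.

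Among the low members, Oasl2, an oligoadenylate synthetase-like protein, had 1.23, 1.20 and 0 normalised counts in DOX and 6.83, 9.86 and 2.68 in DOX with UNC. It had 1.19, 0.741 and 2.32 in DOX with 3C and 9.32, 6.06 and 5.52 with both. The values with UNC were above those without UNC in both media, with no overlap. When all 31642 genes with a read were tested with limma and no filter, the Oasl2 difference had adjusted p = 0.179 without 3C and 0.0746 with 3C. In that same unfiltered test Ifit1 was the 1 low member called in any of these 4 comparisons, for 3C in the presence of UNC (adjusted p = 7.51e-04). That comparison called 7462 of the 31642 genes. The reads of Ifit1 were 0, 0 and 0 in DOX with UNC and 2, 3 and 5 with both. Those reads are at or near the floor of counting.

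No transcript of the interferon ligand genes listed here reached the filter. Of 13 interferon ligand genes, 11 were at 0 in all 12 reprogramming libraries, the highest value of the list was 3.42 normalised counts, and Ifnb1, the fibroblast interferon, was at 0 in all 12 reprogramming libraries and in all 6 iPSC libraries. In the bulk libraries used here, fewer cells expressing a gene and less RNA per cell cannot be told apart.

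RefSeq promoters (GRCm38.p6, of which mm10, the build listed in the submitters' processing notes, is another name) were found for 25 of the 32 members. A motif of the interferon-stimulated response element type, GAAA then any 2 bases then GAAA, on either strand, lay within 250 bases upstream of the annotated start of 11 of the 25 (44%). Among 27025 genes with a promoter entry 936 (3.46%) held it. By detection, 6 of 8 low members and 5 of 17 tested members with an entry held the motif, and 2 of the 7 with an entry that rose with UNC in 3C did. A motif of the gamma-activated type, TTC then any 3 bases then GAA, lay in 6 of 25 members (24%) against 2197 of 27025 genes (8.13%). The 2 motifs overlapped in 1 member promoter, that of Bst2. The windows below belong to Gbp2 and Gbp7, which had the highest fitted changes with UNC in 3C, to Bst2, which rose with 3C, and to Isg15, Ifit1 and Rsad2, which hold the motif and stayed below the filter; capitals mark the letters that match the first motif on either strand.
Gbp2: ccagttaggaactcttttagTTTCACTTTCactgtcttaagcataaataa
Gbp7: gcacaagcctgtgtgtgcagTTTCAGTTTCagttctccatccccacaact
Bst2: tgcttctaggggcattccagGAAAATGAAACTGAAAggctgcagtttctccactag
Isg15: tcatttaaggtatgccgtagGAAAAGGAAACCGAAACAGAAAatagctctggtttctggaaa
Ifit1: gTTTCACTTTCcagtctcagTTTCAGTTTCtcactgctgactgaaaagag
Rsad2: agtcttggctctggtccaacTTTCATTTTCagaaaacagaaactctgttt
The windows lie at chr3:142620584-142620633, plus strand, at chr3:142530263-142530312, plus strand, at chr8:71537567-71537622, minus strand, at chr4:156200855-156200916, minus strand, at chr19:34640784-34640833, plus strand and at chr12:26456543-26456592, minus strand. The match begins 59 bases upstream of the start in Gbp2 and 53 in Gbp7, and each window runs 20 bases to either side of the marked run in its middle. In the Isg15 window 3 matches overlap in 1 run, in Bst2 2 matches do, and in Ifit1 2 separate matches are shown. A match is a string of letters and says nothing about binding.

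In the 3C medium, UNC raised members of several roles, from a sensor to membrane effectors. Of the 21 tested members 9 rose and 0 fell (limma, adjusted p under 0.05), or 42.9% higher, where 11.6% of all 16138 tested genes were called, 7.71% higher and 3.94% lower. The 9 were Ddx58, Irf1, Gbp2, Gbp7, Ifitm3, Parp14, Dtx3l, Xaf1 and Ifi27. The median log2 change over the 21 was 0.31 against 0.00 over all genes. The members, and the other gene lists below, were chosen with earlier results of these data known, so their shares are descriptive. No member fell by limma, edgeR or DESeq2, and 0 had an unadjusted p under 0.05 downward. Of all 16138 tested genes 4152 had one in either direction.

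UNC without 3C raised 2 of the 21, Gbp2 and Ifi27, and lowered 0, where 0.607% of all genes were called, 0.508% higher and 0.0991% lower. The median log2 change of the members was 0.15 against 0.00 over all genes. For the count of 0 lower, edgeR and DESeq2 also gave 0, and 0 members had an unadjusted p under 0.05 downward, while 7 had one upward. Of all 16138 tested genes 1505 had one in either direction. With the replicate number as a block 4 members were higher, Ifit2 and Bst2 in addition, among 409 calls over all genes against 98 without the block.

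The 3C supplements moved members in both directions, and without UNC at shares near those of all genes. Without UNC, 6 rose (Ifih1, Irf9, Gbp2, Bst2, Ifitm3 and Trim25) and 4 fell (Ddx58, Eif2ak2, Xaf1 and Ifi27) of 21, or 28.6% and 19%, against 49.4% of all genes called, 24.7% higher and 24.7% lower. With UNC present, 11 rose (Ifih1, Irf1, Irf9, Gbp2, Gbp3, Gbp7, Bst2, Ifitm3, Parp9, Dtx3l and Trim25) and 1 fell (Ifi27), or 52.4% and 4.76%, against 47.4% of all genes called, 23.9% higher and 23.5% lower. The medians were 0.07 without UNC and 0.33 with it, against 0.02 and 0.01 over all genes. Of the 21 tested members, 16 were called in at least 1 of these 4 comparisons and 5 in none: Dhx58, Irf7, Stat2, Ifit2 and Ifi35. The 4 comparisons share libraries in pairs, so their changes are given side by side below and not correlated.

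**Figure D2:**
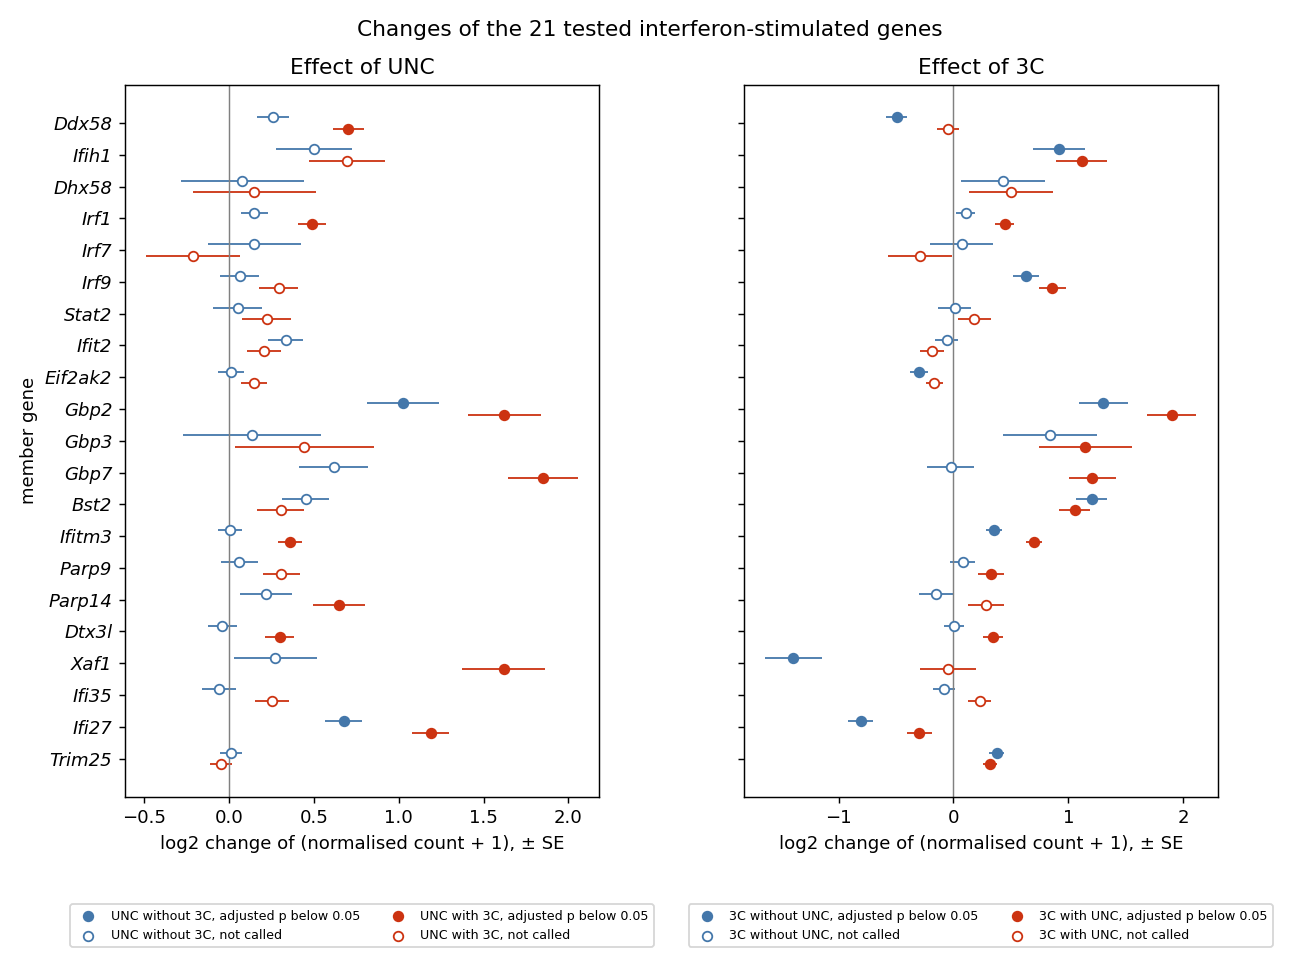
Log2 change of (normalised count + 1) with its standard error for the 21 tested members, by limma over 12 libraries: left, UNC against no UNC in medium without 3C (blue) and with 3C (red); right, 3C against no 3C without UNC (blue) and with UNC (red). Filled points passed an adjusted p of 0.05; 9 red points are filled on the left, from Dtx3l at 0.30 to Gbp7 at 1.85, and Xaf1, Ifi27, Ddx58 and Eif2ak2 lie below 0 in blue on the right.

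Fibroblast markers moved in the same comparison as the members. With UNC in 3C 8 of 10 fibroblast markers rose and 0 fell by limma (80% and 0%, against 7.71% and 3.94% of all genes). None of the 10 had an unadjusted p under 0.05 downward. The markers summed to 62124 to 71954 normalised counts in DOX with 3C and 99767 to 104696 with both. Without 3C 0 of the 10 was called in either direction. Of the 10, 6 had an unadjusted p under 0.05 upward, against 1505 of all 16138 tested genes in either direction. The sums were 146384 to 158031 in DOX and 176125 to 185778 with UNC. For 3C without UNC 1 fibroblast marker rose and 4 fell (10% and 40%, against 24.7% and 24.7% of all genes). With UNC 6 rose and 3 fell for 3C (60% and 30%, against 23.9% and 23.5%). Of 12 tested macrophage markers 0 was called by limma with UNC in either medium, 0 having an unadjusted p under 0.05, and the sums of all groups overlapped. Both tested pluripotency markers, Pou5f1 and Sox2, fell with UNC in 3C, with sums of 4313 to 4493 in DOX with 3C and 2906 to 3473 with both.

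Other marker lists moved with 3C. Both tested endothelial markers fell, with median log2 changes of -1.69 without UNC and -1.97 with it; the sums of the list were 2482 to 2816 normalised counts in DOX, 2603 to 2956 in DOX with UNC, 1650 to 1823 in DOX with 3C and 1310 to 1808 with both. Pou5f1 and Sox2 fell with 3C in both settings as well. Of 5 tested erythroid markers 2 rose with 3C without UNC (40%, against 24.7% of all genes). The erythroid sum ran from 130 to 2078 in DOX with 3C against 123 to 173 in DOX. Of 12 macrophage markers 1 rose with 3C in the presence of UNC (8.33%, against 23.9% of all genes). It was Cd68, at 0.70 ± 0.20 (adjusted p = 0.00719 by limma). The part of these marker levels, and of the fibroblast and macrophage levels above, in the members' changes was not tested.

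Ddx58 encodes RIG-I, which recognises short RNA with a triphosphate end. Its normalised counts were 345, 335 and 291 in DOX, 379, 387 and 394 in DOX with UNC, 255, 202 and 233 in DOX with 3C and 375, 389 and 358 with both. DOX with 3C was the lowest group and overlapped no other, and the 2 groups with UNC lay in nearly the same range. UNC in 3C raised Ddx58 by a log2 change of 0.70 ± 0.09 (adjusted p = 9.19e-05), and 3C without UNC lowered it, with a log2 change of -0.49 ± 0.09 (adjusted p = 0.000243). UNC without 3C gave 0.26 ± 0.09 and 3C with UNC gave -0.05 ± 0.09, neither called (adjusted p = 0.323 and 0.706).

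Ifih1 encodes MDA5, the sensor of long double-stranded RNA. It had 57.6, 34.8 and 29.3 normalised counts in DOX, 64.9, 46.0 and 57.1 in DOX with UNC, 90.2, 67.4 and 67.9 in DOX with 3C and 146, 107 and 115 with both. The group with both lay above the other 3 groups, and both 3C groups lay above both groups without 3C. The 3C log2 change was 0.92 ± 0.22 (adjusted p = 0.00229) without UNC and 1.11 ± 0.22 (adjusted p = 0.000458) with it. The UNC change in 3C was 0.70 ± 0.22 with adjusted p = 0.0513, just outside the threshold, and with the replicate number as a block it was called (adjusted p = 0.00484). Without DOX with 3C replicate 1 it was also called (adjusted p = 0.0402), as it was by edgeR (0.0203) and DESeq2 (0.0159) on the recovered reads. Dhx58, which encodes LGP2, a relative of both sensors that regulates them, ran from 7.21 to 23.4 normalised counts over the 12 libraries and was called in no comparison.

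Among the transcription factors, Irf1, an activator induced by interferon gamma and by inflammatory signals, had 354, 352 and 341 normalised counts in DOX and 369, 398 and 396 in DOX with UNC. It had 394, 338 and 399 in DOX with 3C and 572, 499 and 516 with both, so that the group with both stood above every other library. UNC in 3C raised it by 0.49 ± 0.08 (adjusted p = 0.000731) and 3C with UNC by 0.45 ± 0.08 (adjusted p = 0.000183), on the log2 scale. UNC alone gave 0.15 ± 0.08 (adjusted p = 0.607) and 3C alone 0.11 ± 0.08 (adjusted p = 0.296).

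Irf9, the DNA-binding partner of STAT2, had 147, 143 and 139 normalised counts in DOX and 149, 150.2 and 149 in DOX with UNC. Its values in DOX with 3C were 250.3, 184 and 238 and with both 301, 246 and 274. Every 3C library lay above every library without 3C, and the 2 groups with 3C overlapped. The 3C change was 0.63 ± 0.12 (adjusted p = 0.000177) without UNC and 0.86 ± 0.12 (adjusted p = 6.76e-06) with UNC, and neither UNC change was called; for UNC in 3C the adjusted p was 0.112, 0.0566 with the replicate block and 0.0327 with that block in edgeR. Stat2 (127 to 207 normalised counts over the 12 libraries) and Irf7, the factor that amplifies interferon transcription (12.8 to 23.1), were called in no comparison.

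Of the effectors directed at RNA, only Ifit2 and Eif2ak2 could be tested during reprogramming. Eif2ak2 encodes PKR, the kinase that stops translation when it binds double-stranded RNA. It had 646, 579 and 565 normalised counts in DOX, 567, 606 and 632 in DOX with UNC, 482, 486 and 483 in DOX with 3C and 594, 516 and 501 with both. DOX with 3C was the lowest group, below all libraries of the other 3. The fall with 3C was -0.30 ± 0.08 (adjusted p = 0.00342) without UNC; with UNC it was -0.17 ± 0.08 with adjusted p = 0.0856, and 0.0164 without the replicate 1 library of the group with both. Ifit2, which binds RNA and limits translation, had 223, 276 and 228 in DOX and 301, 308 and 304 in DOX with UNC, 210.0, 249 and 239 in DOX with 3C and 243, 285 and 276 with both. Its UNC libraries without 3C lay above those of the other 3 groups, but the change of 0.33 ± 0.10 was not called (adjusted p = 0.187) except with the replicate block (0.042). Its neighbour Ifit3, 6585 bases away, was under the filter.

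Guanylate-binding proteins are GTPases that coat and break open the compartments of intracellular pathogens. Gbp2, Gbp3 and Gbp7 lie in 1 cluster on chromosome 3, with 9865 bases between Gbp3 and Gbp7 and 47450 between Gbp2 and Gbp3; members of this family resemble each other in sequence, so reads could be divided between them. Gbp2 had 20.8, 32.4 and 27.8 normalised counts in DOX and 41.0, 77.8 and 52.7 in DOX with UNC. It had 78.3, 57.0 and 67.9 in DOX with 3C and 226, 195 and 207 with both. DOX was the lowest group and overlapped no other, UNC alone and 3C alone overlapped each other, and the group with both was above all others. Gbp2 was the 1 member that rose in all 4 comparisons.

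The Gbp2 log2 change was 1.62 ± 0.21 (adjusted p = 9.65e-05) for UNC in 3C, 1.30 ± 0.21 (adjusted p = 6.35e-05) for 3C without UNC and 1.90 ± 0.21 (adjusted p = 9.08e-07) for 3C with UNC. For UNC without 3C it was 1.03 ± 0.21 (adjusted p = 0.0352). That last call was lost without DOX replicate 1 (adjusted p = 0.155), DOX replicate 3 (0.0839), DOX with UNC replicate 2 (0.162) or DOX with UNC replicate 3 (0.125), and by edgeR (0.0719). The other 3 Gbp2 calls held in every alternative run.

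Gbp7 showed another pattern. It had 25.7, 39.6 and 30.7 normalised counts in DOX, 43.6, 54.8 and 49.1 in DOX with UNC, 38.0, 27.4 and 28.6 in DOX with 3C and 135, 97.0 and 114 with both. The DOX and DOX with 3C libraries overlapped, DOX with UNC lay above both, and the lowest library with both lay above every other. UNC in 3C changed Gbp7 by 1.85 ± 0.20 (adjusted p = 1.52e-05) and 3C with UNC by 1.21 ± 0.20 (adjusted p = 9.2e-05). Without UNC the 3C change was -0.03 ± 0.20 (adjusted p = 0.931), and without 3C the UNC change was 0.62 ± 0.20 (adjusted p = 0.254).

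Gbp3 stayed close to the filter, with 13.5, 4.80 and 4.39 normalised counts in DOX, 4.27, 8.77 and 10.7 in DOX with UNC, 14.2, 12.6 and 11.6 in DOX with 3C and 19.8, 17.0 and 16.6 with both. The group with both was above all other libraries. The change with 3C in the presence of UNC was 1.15 ± 0.41 (adjusted p = 0.0273). It was lost without DOX with UNC replicate 1 (adjusted p = 0.138) and without replicate 1, 2 or 3 of the group with both (0.0748, 0.0542 and 0.0517), and also by DESeq2 on recovered reads (0.0607) and with no expression filter (0.0757). Without UNC the 3C change was 0.84 ± 0.41 (adjusted p = 0.0981), and it was called when DOX replicate 1 was left out (0.0132).

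Bst2 encodes tetherin, a membrane protein that holds budding virus particles on the cell. It had 175, 237 and 186 normalised counts in DOX and 223, 341 and 261 in DOX with UNC. It had 489.9, 477 and 405 in DOX with 3C and 513, 611 and 571 with both. Every 3C library was above every library without 3C, and the 2 groups without 3C overlapped. The 3C change was 1.20 ± 0.14 (adjusted p = 9.66e-07) without UNC and 1.06 ± 0.14 (adjusted p = 4.79e-06) with it. UNC in 3C gave 0.31 ± 0.14 with adjusted p = 0.168, and 0.0349 with the replicate number as a block. UNC without 3C gave 0.45 ± 0.14 with adjusted p = 0.189, and 0.0129 with that block.

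Ifitm3, which blocks the fusion of enveloped viruses with the cell, had 5207, 4693 and 4514 normalised counts in DOX and 5119.9, 4448 and 4913 in DOX with UNC. It had 6726, 5655 and 6007 in DOX with 3C and 7779, 7637 and 8137 with both. The groups without 3C overlapped each other, and DOX with 3C lay between them and the group with both, with no overlap. UNC in 3C raised Ifitm3 by 0.36 ± 0.07 (adjusted p = 0.00239), and 3C raised it by 0.35 ± 0.07 (adjusted p = 0.000391) without UNC and by 0.70 ± 0.07 (adjusted p = 1.65e-07) with UNC. UNC without 3C gave 0.01 ± 0.07 (adjusted p = 0.992).

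**Figure D3:**
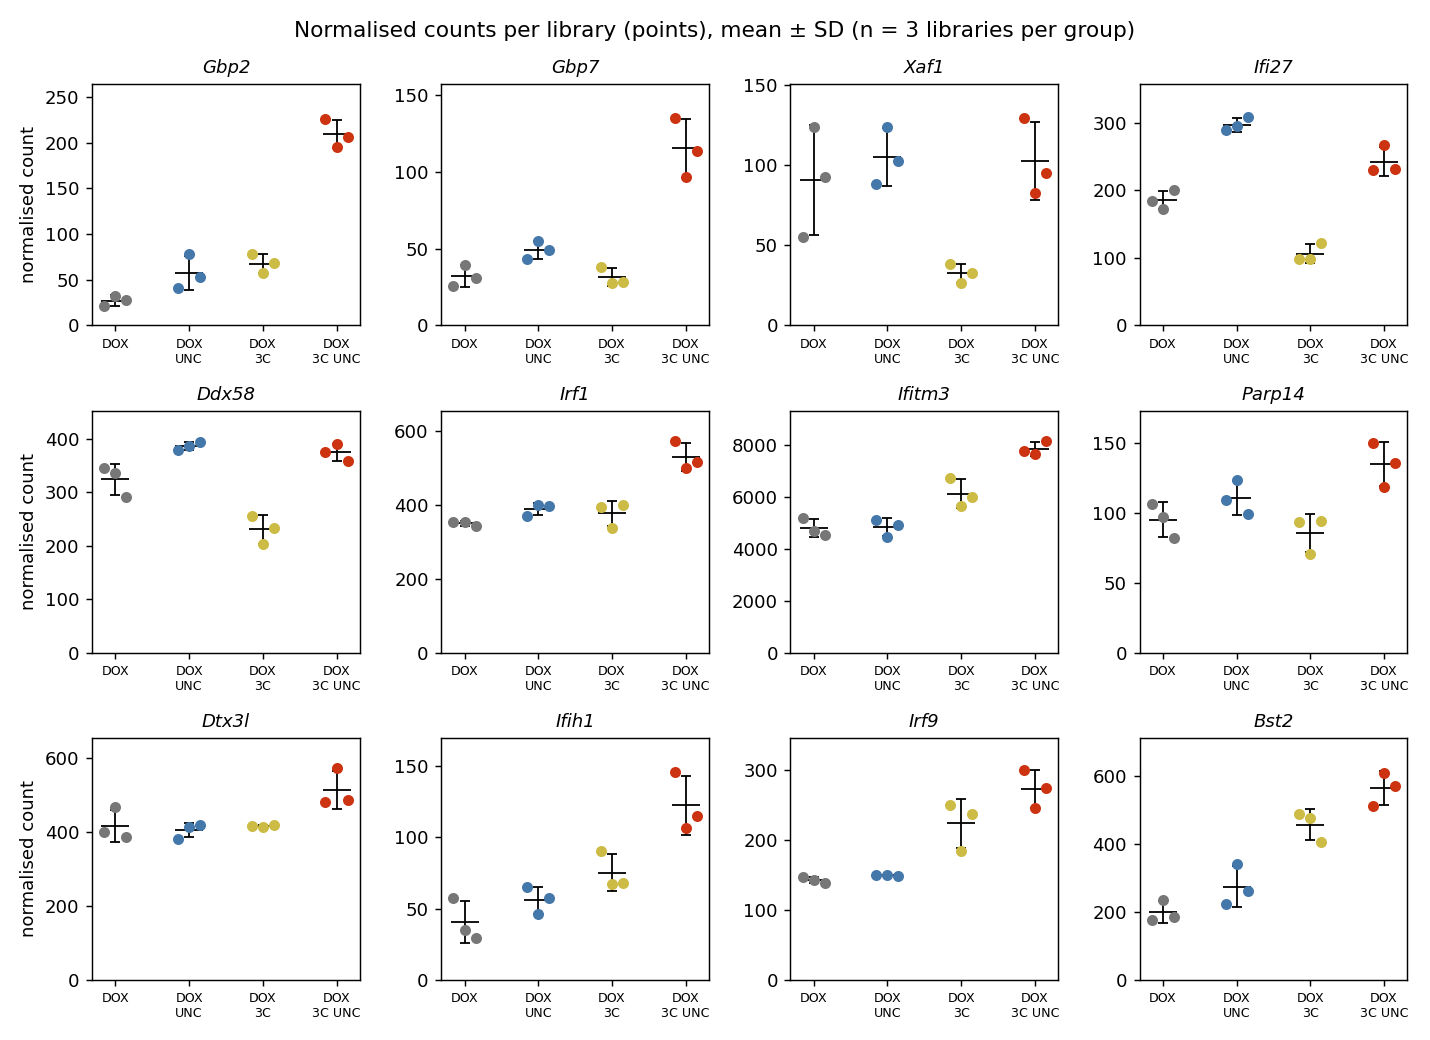
Normalised counts (linear axes from 0) of 12 members in each library, by group (3 points each), with the mean as a dash and the SD (n = 3 libraries) as a bar. Gbp2, Gbp7, Irf1 and Ifitm3 are highest in all 3 libraries with 3C and UNC, Xaf1, Ddx58 and Ifi27 are lowest in DOX with 3C, and Irf9 and Bst2 are higher in both 3C groups.

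PARP9 and PARP14 belong to the ADP-ribosyltransferase family, and DTX3L is a ubiquitin ligase that works with PARP9. All 3 genes lie together on chromosome 16, where the annotated spans of Parp9 and Dtx3l overlap; whether the counting used strand is not given in the sources used here, so reads in the overlap may be shared. Parp14 had 107, 97.3 and 82.0 normalised counts in DOX and 109, 124 and 99.1 in DOX with UNC. It had 93.7, 70.4 and 94.2 in DOX with 3C and 150.3, 119 and 136 with both. The group with both lay above DOX and DOX with 3C and overlapped DOX with UNC. UNC in 3C raised Parp14 by 0.65 ± 0.15 (adjusted p = 0.00985), with adjusted p = 0.0674 without DOX with 3C replicate 2.

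Dtx3l had 398, 466 and 385 normalised counts in DOX, 382, 413 and 418 in DOX with UNC, 416, 412 and 418 in DOX with 3C and 481, 573 and 486 with both. The group with both was above all other libraries. UNC in 3C changed Dtx3l by 0.30 ± 0.09 (adjusted p = 0.031), a call lost without DOX with 3C replicate 1, 2 or 3 (adjusted p = 0.0652, 0.0957 and 0.0684) or without replicate 2 of the group with both (0.123). The 3C change with UNC was 0.34 ± 0.09 (adjusted p = 0.0032). Parp9, at 217 to 375 normalised counts over the 12 libraries, rose with 3C in the presence of UNC by 0.33 ± 0.11 (adjusted p = 0.0206). That call was lost without replicate 1 of DOX with UNC (0.0705) or of the group with both (0.112). For UNC in 3C Parp9 gave 0.31 ± 0.11 (adjusted p = 0.0781), which was called with the replicate block (0.025) and without replicate 3 of the group with both (0.0455).

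Xaf1, which binds the apoptosis inhibitor XIAP and promotes cell death, had 55.2, 124 and 92.2 normalised counts in DOX and 88.0, 124 and 103 in DOX with UNC. It had 38.0, 26.7 and 32.4 in DOX with 3C and 129, 82.4 and 95.0 with both. DOX with 3C was lowest without overlap, and the other 3 groups overlapped. The log2 change with 3C was -1.39 ± 0.25 (adjusted p = 0.000126) without UNC and -0.05 ± 0.25 (adjusted p = 0.896) with UNC. The UNC change was 1.62 ± 0.25 (adjusted p = 0.000339) in 3C and 0.27 ± 0.25 (adjusted p = 0.819) without it.

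Ifi27 encodes a small mitochondrial membrane protein and was the 1 member besides Gbp2 called in all 4 comparisons. It had 184, 173 and 201 normalised counts in DOX, 289, 295 and 309 in DOX with UNC, 98.5, 97.8 and 122 in DOX with 3C and 229, 267 and 231 with both. The 4 groups did not overlap, and their order from low to high was DOX with 3C, DOX, both, and DOX with UNC. UNC raised Ifi27 by 0.68 ± 0.11 (adjusted p = 0.00816) without 3C and by 1.19 ± 0.11 (adjusted p = 2.81e-06) with it. The 3C change was -0.81 ± 0.11 (adjusted p = 7.17e-06) without UNC and -0.30 ± 0.11 (adjusted p = 0.0322) with UNC.

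The Ifi27 call for UNC without 3C was lost without DOX with UNC replicate 3 (adjusted p = 0.0589). The call for 3C with UNC was lost without replicate 1, 2 or 3 of DOX with UNC (0.0514, 0.0643 and 0.101) or replicate 1 or 3 of the group with both (0.0959 and 0.101). The annotated span of Ifi27 overlaps that of Ifi27l2a, a related gene, which ran from 4.39 to 6.13 normalised counts in DOX, 8.03 to 13.2 in DOX with UNC, 0 to 1.19 in DOX with 3C and 0 to 3.64 with both.

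Trim25, the ubiquitin ligase that activates RIG-I, had 1424, 1367 and 1332 normalised counts in DOX and 1416, 1396 and 1345 in DOX with UNC. It had 1834, 1906 and 1624 in DOX with 3C and 1636, 1849 and 1704 with both. All 6 libraries with 3C were above all 6 without it, and UNC made no called difference in either medium. The 3C change was 0.38 ± 0.06 (adjusted p = 8.59e-05) without UNC and 0.32 ± 0.06 (adjusted p = 0.000467) with UNC. Ifi35, an interferon-induced leucine zipper protein, ran from 218 to 295 normalised counts and was called in no comparison.

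Whether the UNC change differed between the media was tested as the interaction of UNC and 3C. Of the 21 members 0 was called by limma in either direction, where 0.062% of all genes were called, 0.0434% higher and 0.0186% lower. At an unadjusted p under 0.05 8 members were higher and 0 lower, where 1797 of all 16138 tested genes were below it in either direction. By adjusted p edgeR called 0, and DESeq2 called 1 (Ifitm3, adjusted p = 0.0352). The lowest adjusted p by limma was that of Gbp7, with an interaction of 1.23 ± 0.29 (adjusted p = 0.0899), followed by Xaf1 at 1.35 ± 0.35 (0.128). With the replicate number as a block limma called 3 members higher, Gbp7 (adjusted p = 0.0245), Ifitm3 (0.0107) and Xaf1 (0.0296), among 413 genes called against 10 without the block, and edgeR with that block called 4, Ddx58 (0.0391) in addition. The median interaction of the members was 0.31 on the log2 scale against 0.00 over all genes.

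The genes around the members were followed from the lists of receptors, signalling, sensing and further induced genes. With UNC in 3C, 4 of 11 tested JAK-STAT genes rose and 0 fell by limma (36.4% and 0%). Of all genes, 7.71% were higher and 3.94% lower. No JAK-STAT gene had an unadjusted p under 0.05 downward. Socs3, a feedback inhibitor of JAK kinases, had 3637, 3104 and 3089.9 normalised counts in DOX with 3C and 4297, 4526 and 4468 with both, without overlap, a log2 change of 0.44 ± 0.08 (adjusted p = 0.00143).

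Of 5 tested receptor subunits 0 was called by limma for UNC in 3C, although 4 had an unadjusted p under 0.05 upward. Of all 16138 tested genes 4152 had one in either direction. Ifnar1 gave 0.17 ± 0.06 (adjusted p = 0.0784) and Ifnar2 0.15 ± 0.08 (adjusted p = 0.229). With 3C and without UNC, 1 of 5 rose and 2 fell (20% and 40%), where 24.7% of all genes rose and 24.7% fell. Ifnar2, the high-affinity chain of the type I receptor, gave 0.22 ± 0.08 (adjusted p = 0.0239), lost without DOX replicate 3 (0.129) or DOX with 3C replicate 1 (0.133). Ifnar1, the other chain, gave -0.17 ± 0.06 (adjusted p = 0.0263), lost without DOX replicate 1 or 2 (0.0922 and 0.0702) or DOX with 3C replicate 2 or 3 (0.0975 and 0.0545). With UNC, Ifnar2 rose with 3C by 0.32 ± 0.08 (adjusted p = 0.00258) and Ifngr2, of the interferon gamma receptor, fell, with -0.27 ± 0.08 (adjusted p = 0.0104), lost without DOX with UNC replicate 3 (0.0774).

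Among 18 tested genes of nucleic acid sensing, 3 rose and 1 fell with UNC in 3C. Those are 16.7% and 5.56%, against 7.71% and 3.94% of all genes. Tmem173, which encodes the DNA sensing adaptor STING, rose by 0.53 ± 0.11 (adjusted p = 0.00345), from 769.9, 635 and 616 normalised counts in DOX with 3C to 982, 996 and 931 with both, without overlap. Rnaseh2a, a subunit of the enzyme that removes ribonucleotides from DNA, had a change of -0.28 ± 0.06 (adjusted p = 0.00855). With 3C and without UNC, 5 rose and 4 fell, or 27.8% and 22.2%, close to the 24.7% and 24.7% of all genes; the Toll-like receptor adaptor Myd88 was among the called genes, at 1.24 ± 0.08 (adjusted p = 5.01e-10). With UNC, 7 rose and 3 fell, or 38.9% and 16.7%, against 23.9% and 23.5%.

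Of 62 further interferon-induced genes 29 were tested, and UNC in 3C raised 10 and lowered 1. These are 34.5% and 3.45% of the 29, against 7.71% and 3.94% of all genes. Lgals3bp, a secreted glycoprotein, had 163, 122 and 124 normalised counts in DOX with 3C and 355, 347 and 408 with both, a change of 1.44 ± 0.13 (adjusted p = 2.58e-06). Helz2, a helicase, changed by 0.73 ± 0.09 (adjusted p = 4.71e-05), Parp10 by 1.32 ± 0.23 (adjusted p = 0.00119) and Ifi211, of the IFI200 family, by 1.13 ± 0.21 (adjusted p = 0.00164). Without 3C, Lgals3bp was the 1 gene of this list called (3.45%, where 0.508% of all genes were higher). Its change was 0.61 ± 0.13 (adjusted p = 0.0357 by limma). The call was lost without DOX replicate 1 (0.155) or 3 (0.165), or DOX with UNC replicate 2 (0.162) or 3 (0.125).

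With 3C and without UNC, 7 of the 29 further genes rose and 8 fell, or 24.1% and 27.6%, close to the 24.7% and 24.7% of all genes. With UNC 14 rose and 4 fell, or 48.3% and 13.8%, against 23.9% and 23.5% of all genes. Ifi204, a DNA sensor of the IFI200 family, rose by 1.38 ± 0.14 (adjusted p = 1.69e-07) without UNC and by 1.93 ± 0.14 (adjusted p = 2.36e-09) with UNC. Slfn5, of the Schlafen family, rose by 2.67 ± 0.43 (adjusted p = 4.73e-05) and 3.28 ± 0.43 (adjusted p = 5.19e-06). Lgals3bp fell with 3C without UNC, with a change of -0.98 ± 0.13 (adjusted p = 5.07e-06). In the JAK-STAT list 4 rose and 1 fell with 3C without UNC and 5 rose and 1 fell with it (36.4% and 9.09%, then 45.5% and 9.09%), Socs3 at 1.61 ± 0.08 (adjusted p = 1.74e-11) and 1.88 ± 0.08 (adjusted p = 2.54e-12).

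In the iPSC libraries, 26 of the 32 members were tested and 6 (Usp18, Ifit1, Ifit3, Mx1, Mx2 and Rsad2) were too low, with at most 16 reads in a library. The levels below are CPM, a gene's reads scaled to a library total of 1000000 reads. With UNC in the first 48 hours 1 of the 26 rose (Ifi27) and 0 fell by edgeR's quasi-likelihood test, or 3.85% higher, where 1.31% of 17987 tested genes were called, 1.27% higher and 0.0389% lower. DESeq2 also called 1 higher and 0 lower, limma on log2 CPM called 0 in either direction, and at an unadjusted p under 0.05 7 were higher and 3 lower. Of the 17987 tested genes 2207 had an unadjusted p under 0.05 in either direction. The median log2 change was 0.00, against -0.01 over all genes.

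Ifi27 had 3.95, 4.09 and 5.04 CPM in the DMSO libraries and 6.94, 6.61 and 6.90 in the UNC libraries, which did not overlap. The change was 0.65 ± 0.14 (adjusted p = 0.0423) by edgeR. Leaving out DMSO replicate 1 or 2 gave adjusted p = 0.129 or 0.157, and leaving out UNC replicate 1, 2 or 3 gave 0.225, 0.159 or 0.0917. These libraries are not those of the reprogramming comparisons.

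Several members, the guanylate-binding genes among them, were highest in 1 iPSC library. Gbp2 had 7.23, 8.34 and 28.7 CPM with DMSO and 4.47, 6.37 and 9.73 with UNC. Gbp3 had 1.01, 1.30 and 3.83 with DMSO and 0.772, 0.730 and 1.11 with UNC, and Gbp7 had 0.798, 1.10 and 3.29 and 1.06, 1.10 and 1.30. In all 3 genes, and in Cxcl10, a chemokine for T cells (0.378, 0.512 and 1.79 against 0.325, 0.446 and 0.417), DMSO replicate 3 was the highest of the 6 libraries. The log2 changes were -1.10 ± 0.47 (adjusted p = 0.374) for Gbp2 and -1.22 ± 0.47 (adjusted p = 0.333) for Gbp3, and without DMSO replicate 3 they were -0.19 (adjusted p = 0.929) and -0.41 (0.834). With no expression filter edgeR called both lower (adjusted p = 0.00107 for Gbp3). With the replicate number of the titles as a block it called Gbp2 lower. For Gbp7 the change was -0.58 ± 0.45 (adjusted p = 0.647), and 0.27 without that library.

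**Figure D4:**
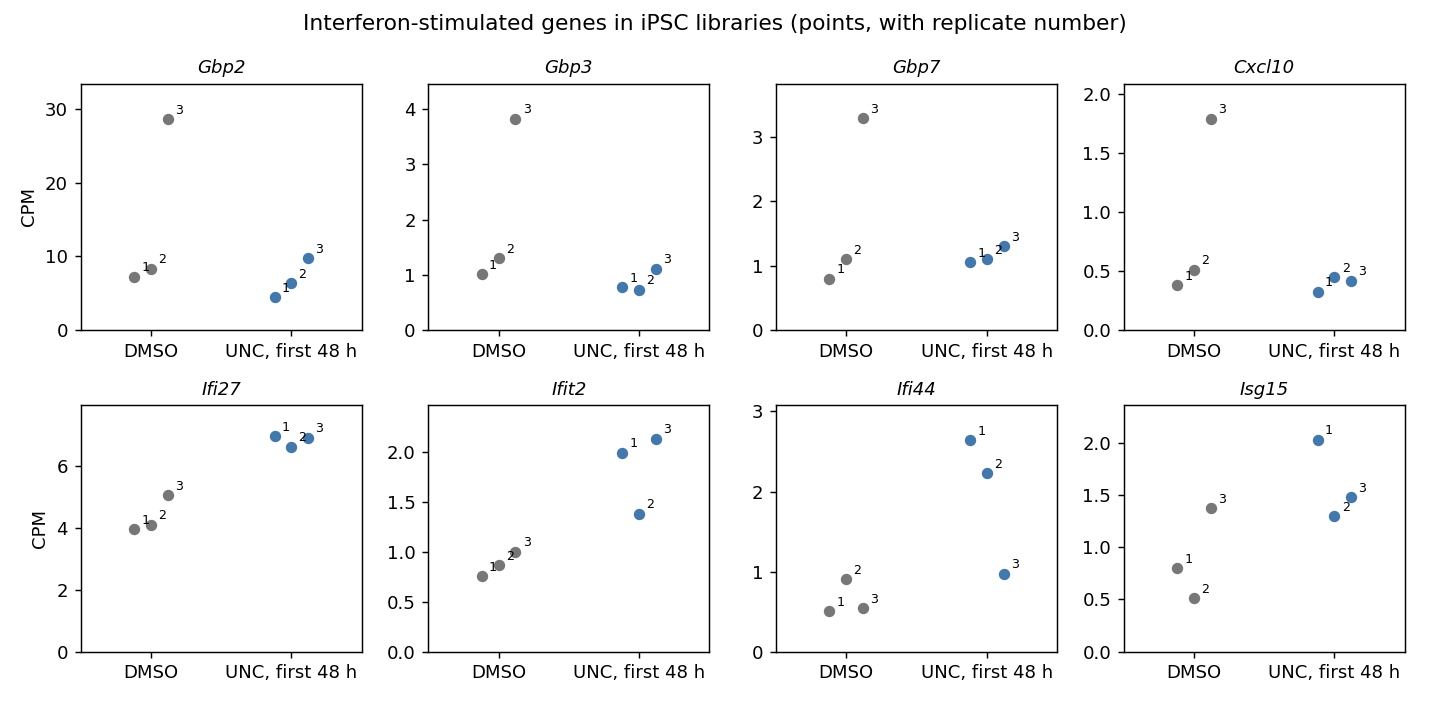
CPM (linear axes from 0) of 8 members in the 6 iPSC libraries, 3 with DMSO (grey) and 3 with UNC for the first 48 hours (blue), each point with its replicate number. DMSO replicate 3 stands above the other libraries in Gbp2, Gbp3, Gbp7 and Cxcl10, and the UNC libraries lie above the DMSO libraries in Ifi27, Ifit2 and Ifi44.

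Ifit2 had 0.756, 0.866 and 1.000 CPM with DMSO and 1.99, 1.38 and 2.13 with UNC, without overlap, and a change of 1.07 ± 0.26 (adjusted p = 0.101). Ifi44, an interferon-induced cytoplasmic protein, had 0.504, 0.905 and 0.542 with DMSO and 2.64, 2.23 and 0.973 with UNC, a change of 1.59 ± 0.39 (adjusted p = 0.0993). Both lay higher in all 3 UNC libraries, and neither was called in the main test. Ifi44 was called without UNC replicate 3 (adjusted p = 0.0155), with no expression filter, and with the replicate number of the titles as a block. Ifit2 was called by edgeR with no expression filter (adjusted p = 0.0107). Isg15 had 0.798, 0.512 and 1.37 with DMSO and 2.03, 1.30 and 1.48 with UNC, which overlapped, and a change of 0.86 ± 0.35 (adjusted p = 0.357). Of the 9 members raised by UNC in 3C during reprogramming, only Ifi27 was called here in the main test. Ddx58 gave 0.28 ± 0.10 (adjusted p = 0.287, and 0.0109 by edgeR with no expression filter). Gbp7 gave -0.58 ± 0.45 (adjusted p = 0.647), and 0.27 without DMSO replicate 3. The others gave -1.10 (Gbp2), -0.26 (Xaf1), -0.13 (Irf1), -0.00496 (Parp14), 0.014 (Dtx3l) and 0.13 (Ifitm3).

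In the iPSC comparison, 0 of 36 tested further induced genes fell. Of the 36, 3 had an unadjusted p under 0.05 downward, against 2207 of 17987 tested genes in either direction. Of the same 36 genes 1 rose (2.78%, against 1.27% of all genes). The 1 was Lgals3bp, with 6.64, 7.71 and 6.83 CPM with DMSO, 13.2, 11.9 and 10.7 with UNC and a change of 0.77 ± 0.12 (adjusted p = 0.00908). It was lost without UNC replicate 1 (0.0711) or 2 (0.0563). In the same comparison 7 of 10 fibroblast markers rose (70%, against 1.27% of all genes). The markers summed to 5480 to 6015 CPM with DMSO and 7559 to 8984 with UNC, with no overlap. Their part in these changes was not tested.

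The 2 sets of libraries were scaled separately, so levels between them were not tested; expressed as CPM, members differed in where they were higher. Ifit2 ran from 13.9 to 19.5 CPM in the reprogramming libraries and from 0.756 to 2.13 in the iPSC libraries, and Ifih1 from 1.88 to 9.88 and from 0.252 to 0.695. Ddx58 ran the other way, from 13.5 to 25.5 CPM in reprogramming and 44.2 to 66.4 in iPSCs, and so did Stat2, from 8.05 to 14.1 and 39.4 to 50.5. Oasl2, too low to test in reprogramming at up to 0.632 CPM, ran from 2.19 to 5.17 in iPSCs.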

How the data were processed

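RNA was measured in 12 reprogramming libraries and 6 iPSC libraries with a strand-marking total RNA kit after ribosomal RNA removal, per the labels' protocols. Tools named in the submitters' processing notes are TopHat2 2.1.0, SAMtools 1.8, HTSeq 0.5.4p3 and DESeq, with build mm10. The authors deposited raw counts for the iPSC libraries. The deposited reprogramming table holds a signal, read counts divided by 1 factor per library (normalised counts), and whole reads were recovered for 100% of values within 0.01 read. 2 columns that match no listed sample were not used, and 10 H3K9me2 samples were not analysed here.

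The reprogramming test was limma 3.58.1 (R 4.3.3) on log2(value + 1), all 12 libraries in 1 fit, keeping genes that reached 10 in 3 libraries. The iPSC test was edgeR 4.0.16 quasi-likelihood with TMM scaling and its own low-count filter. A call is a Benjamini-Hochberg adjusted p under 0.05 over all genes tested; the added 1 understates changes of low genes. DESeq2 1.42.0, edgeR on recovered reads and left-out libraries were alternatives. Tested on simulated data, the limma procedure recovered 91% of genes changed by log2 1 for UNC without 3C (15995 genes), and edgeR 94% for the iPSC comparison (17994 genes). Each run changed 100 genes by log2 1 and 100 by log2 2. The same runs made 18 false calls with limma and 20 with edgeR among the unchanged genes. The simulation gave every gene the same dispersion and did not tie same-numbered libraries, so it may not match these libraries. The changed genes were not drawn from genes with few reads, so the recovery does not cover members near the filter.

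The members and lists were chosen with earlier results of these data known. Named are all 32 members, Ifnar1, Ifnar2 and Ifnb1 (1 other gene of this rule is not reported here), and up to 4 called genes with the lowest adjusted p per list and comparison; Ifi27l2a was named for its overlap with Ifi27 after its values were seen. Replicates of a group differed by more than sampling noise in all 18 pairs (chi-square per degree of freedom 2.93 to 10). Deviations of same-numbered libraries correlated above 0.1 in every pair for UNC in 3C (0.11 to 0.191), 3C without UNC (0.106 to 0.156) and 3C with UNC (0.155 to 0.205). Over all 6 pairs of reprogramming groups they were 0.059 to 0.223 (18 pairs of libraries, 0.094 to 0.223 for UNC without 3C), against -0.19 to -0.01 for different numbers (36 pairs). The labels give only numbers, so a pairing of the 12 libraries rests on the same-numbered correlations. The main tests did not use this pairing and fitted group means only. The replicate number entered as a block in the alternatives alone.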

Additional observations from a re-analysis of the deposited data

How the results depend on the processing

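Leaving out 1 library at a time, the members called higher were 0 to 2 for UNC without 3C, 7 to 10 for UNC in 3C, 6 to 7 for 3C without UNC, 9 to 11 for 3C with UNC, 0 to 0 for the interaction and 0 to 1 in iPSCs; called lower were 0 to 0, 0 to 0, 4 to 4, 0 to 1, 0 to 0 and 0 to 0. For UNC without 3C (2 higher), 1 was higher with no expression filter, 1 with edgeR on recovered reads, 1 in a fit on the 6 libraries concerned, 4 with the replicate block and 4 with that block in edgeR, an alternative chosen after seeing the data. For the interaction (0 higher), DESeq2 gave 1, the replicate block 3 and the block in edgeR 4. In iPSCs (1 higher, 0 lower), no filter gave 4 higher and 2 lower, the replicate block by title numbers 2 and 1, the block by description numbers 0 higher, and limma on log2 CPM 0 higher. The causes were not tested. The iPSC libraries share only a number (same-numbered correlations 0.049 to 0.109). The replicate block gained Ifit2 and Bst2 for UNC without 3C, Gbp7, Ifitm3 and Xaf1 for the interaction, and Ifih1, Bst2 and Parp9 for UNC in 3C, with Irf9 there (adjusted p = 0.0327) and Ddx58 in the interaction (0.0391) by the block in edgeR alone; it changed no other member's call during reprogramming. Over all genes the block gave 409 calls for UNC without 3C (98 without it) and 413 for the interaction (10), for which DESeq2 gave 160; leaving out libraries gave 19 to 146 and 0 to 70. In iPSCs (236 calls) no filter gave 823, DESeq2 395, the title block 407, and leaving out libraries 84 to 217. For UNC in 3C (1880) the block gave 2871 and leaving out libraries 1034 to 1921. The 7 calls of Ddx58, Irf1, Gbp2, Gbp7, Ifitm3, Xaf1 and Ifi27 for UNC in 3C held in all 16 alternatives, as did the 10 for 3C without UNC. No called member changed sign. Depth limits the 11 members with at most 11 reads.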
